A study of Homo sapiens with 40 samples.

Results

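HepaRG cells exposed to glyphosate at 10 µg/L, the lowest dose of the herbicide, were compared with solvent controls, that is, the 5 libraries labelled Glyphosate_10ug/L against the 5 labelled Control, 10 of the 40 libraries of the series, chosen by their labels alone. HepaRG (HPR 116) is a line derived from a human liver tumour whose differentiated cultures hold hepatocyte-like cells beside biliary-like cells. All cultures were switched on day 8 to test medium with 2% FBS and 1% DMSO and kept in it until day 14, so that the controls carried the same solvent for the same 6 days as the exposed cells. The remaining 15 libraries of the same table were from Roundup at 10 µg/L and from glyphosate at higher doses, 1 mg/L or 0.1 g/L, 5 libraries each. They entered the estimate of the spread. The labels do not say whether the 5 libraries of a group came from separate cultures. The p-values therefore measure only the spread between these libraries, which may be technical. Replicate numbers below also follow 5 runs of library numbers, which the labels do not call batches. Most control libraries correlated best, in their deviations from the group means, with the glyphosate library of their own run. The main fit and the permutation p-values take no account of the runs, so spread between runs counts as error in both.

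Glyphosate is an analogue of glycine that blocks an enzyme of the shikimate pathway, by which plants and many microbes make aromatic amino acids and which animals lack. Hepatocytes handle foreign compounds through the aryl hydrocarbon receptor (AhR) and the nuclear receptors PXR and CAR, which raise cytochrome P450, conjugation and transport genes when a ligand is present. The same cells make plasma proteins and bile acids and store, export and oxidise fat, and stress programmes such as the NRF2, p53 and unfolded protein responses switch on when they are damaged.

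Expression was taken as FPKM, fragments scaled to transcript length and to the mapped fragments of a library, summed over all transcripts that carry a gene's name. Of 56568 gene names in the table, 9533 had a variance of FPKM above 1 across its 25 libraries and were tested with limma on log2(FPKM + 1). Every log2 change below is the glyphosate mean minus the control mean on that scale, which understates the change of genes with low FPKM. Values per library are given in the order of replicates 1 to 5.

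The libraries of both groups overlapped in these general measures, and replicate 5 of each stood apart from the other 4. Summed FPKM ran from 299809 to 471687 in the controls and from 282781 to 513059 at glyphosate 10 µg/L (exact permutation p = 0.968), with both minima in replicate 5. Transcripts with no gene name held 23.5% of FPKM in control replicate 5 and 27.5% in glyphosate replicate 5, against 12.2% to 16.6% in the other 8 libraries. Structural RNAs of the signal recognition particle and of splicing and related small RNAs took 28.4% to 31.1% in the controls and 27.7% to 39.97% at glyphosate. The highest share was that of glyphosate replicate 5, which listed RN7SL1 at 20403 FPKM where the other 9 libraries listed AL139099.5, a name outside this sum. The leading component of all 9533 genes, 52.6% of the variance, placed control replicate 5 at 59.8 and glyphosate replicate 5 at 75.02, and the others between -32.9 and 5.89. The groups differed on it by 4.10 (exact permutation p = 0.778).

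**Figure D1:**
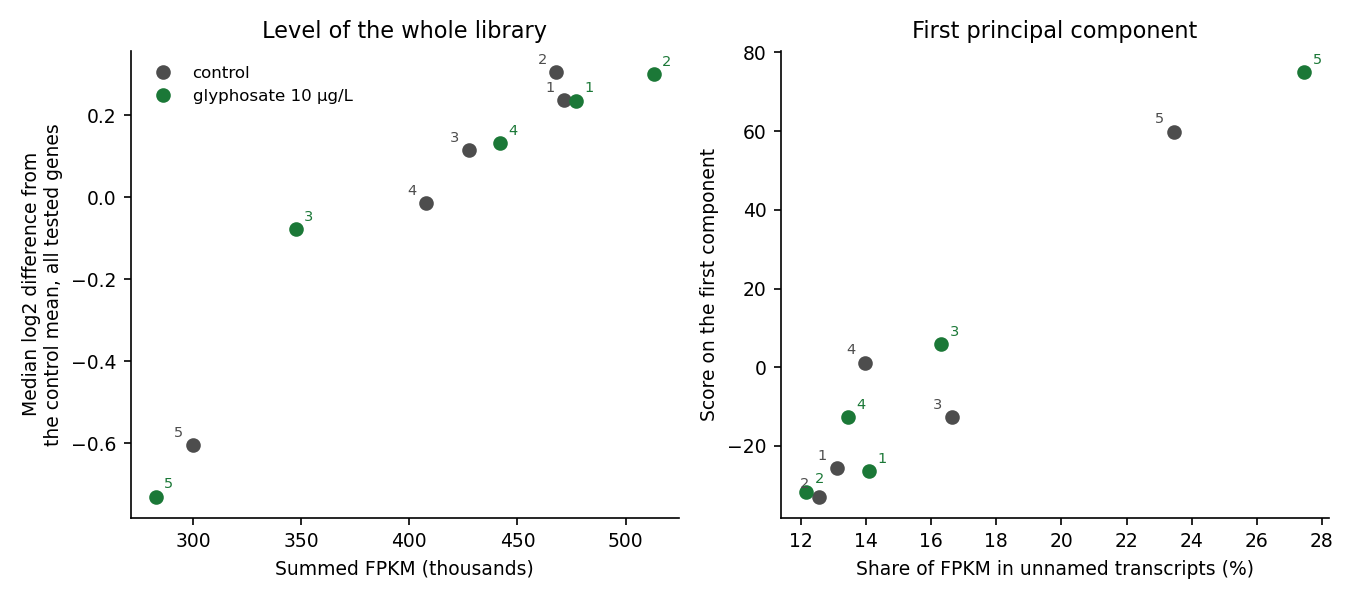
Left, summed FPKM of each library against the median over genes of its log2 difference from the control mean; right, percent of FPKM in unnamed transcripts against the score on the leading component. Numbers are replicates; replicate 5 of the control and of the glyphosate 10 µg/L group lies apart from the other 8 libraries in both panels, on the same side in each group.

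Most hepatocyte genes were high in both groups, at overlapping levels. Others were low, with TAT at a mean of 0.628 FPKM in the controls and 0.520 at glyphosate, and CPS1 at 6.64 and 5.74. ALB, the main plasma protein of the hepatocyte, was at 10770.5, 12241, 10883, 12989 and 9144 FPKM in the controls and 11365, 14533, 9411, 17154 and 7274 at glyphosate, a log2 change of 0.04 with a 95% interval from -0.48 to 0.55. The glyphosate values held both the highest and the lowest library, and the ranges overlapped over most of their length. The 22 hepatocyte markers summed to between 20023 and 32450 FPKM in the controls and between 17086 and 34611 at glyphosate (exact permutation p = 0.952). Biliary and progenitor markers summed to 283 to 545 and 247 to 599.7 FPKM, with KRT19 at a mean of 303 and 291, while EPCAM stayed under 0.1 FPKM in all 10 libraries. Fibroblast and stellate markers reached 49.98 to 109 and 53.6 to 118 FPKM, led by LUM. Endothelial markers reached only 0.943 to 5.28 and 1.12 to 2.52 FPKM. Over the 10 libraries KDR ran from 0.768 to 4.998 FPKM, while CDH5 and CLEC4G were listed at 0 in all of them. Leukocyte markers summed to 4.38 to 14.3 and 3.55 to 14.1 FPKM. PTPRC stayed at or under 0.043 FPKM, while LYZ ran from 1.47 to 8.95, CD14 from 1.14 to 5.04 and CD68 from 0.184 to 3.69. In bulk RNA, fewer cells of a type and less RNA per cell cannot be told apart.

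No gene passed the threshold. Limma called 0 of 9533 genes (0%) at an adjusted p under 0.05, and 95 genes had an unadjusted p under 0.05 (0.997%), 41 of them higher (0.43%) and 54 lower (0.566%) at glyphosate. Chance alone would give a share of about 0.05 at an unadjusted p under 0.05, so fewer genes than that had one. The cause was not tested. After scaling to the 75th percentile 267 genes had such a p, 190 higher and 77 lower, so the balance of directions turned with the scaling. The smallest unadjusted p was 0.00048 and every adjusted p was 1. Without replicate 5 of every group the count of called genes was again 0, with 135 genes at an unadjusted p under 0.05.

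The size of the effects was small for most genes. The median log2 change was -0.04, and the median size irrespective of sign was 0.089. From the 5th to the 95th percentile the log2 changes ran from -0.36 to 0.32, and from the 1st to the 99th from -0.72 to 0.65. A log2 change above 1 was found for 25 genes and below -1 for 38, together 0.661% of those tested, and 33 of these 63 had an unadjusted p under 0.05. More genes were lower than higher, 5987 against 3541, and this split depended on the scaling and on single libraries. Dividing each library by its 75th percentile moved the median to 0.04, and leaving out control replicate 5 or glyphosate replicate 5 moved it to -0.19 or 0.14. Leaving out control replicate 1 or control replicate 2 moved it to 0.02 or 0.03.

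The precision set what could be seen. The 95% interval of a log2 change extended by a median of 0.56 on either side, and it lay wholly between -1 and 1 for 8239 genes (86.4%), for which a 2-fold change on this scale was outside the interval. It lay between -0.5 and 0.5 for only 168 genes (1.76%), so that without scaling most intervals reached beyond a size of 0.5. The intervals are not adjusted for the number of genes, so their margin is not the size needed for a call. The median margin was 0.31 after scaling to the 75th percentile, 0.27 after quantile normalization, 0.32 with library size as a term and 0.36 with library weights, and none of these called a gene. Libraries at glyphosate varied more than the controls in 6201 genes (65.0%), with a median SD of 0.467 against 0.417 on the log2 scale. Genes with a mean of 1 to 5 FPKM had a median size of 0.137, and 73.99% of their intervals lay within 1, whereas genes with 5 to 20 FPKM had 0.0793 and 91.6%. The share at an unadjusted p under 0.05 was 2.296% in the lower of these classes and 0.539% in the higher. Depth was not used, and FPKM carries no counting error.

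**Figure D2:**
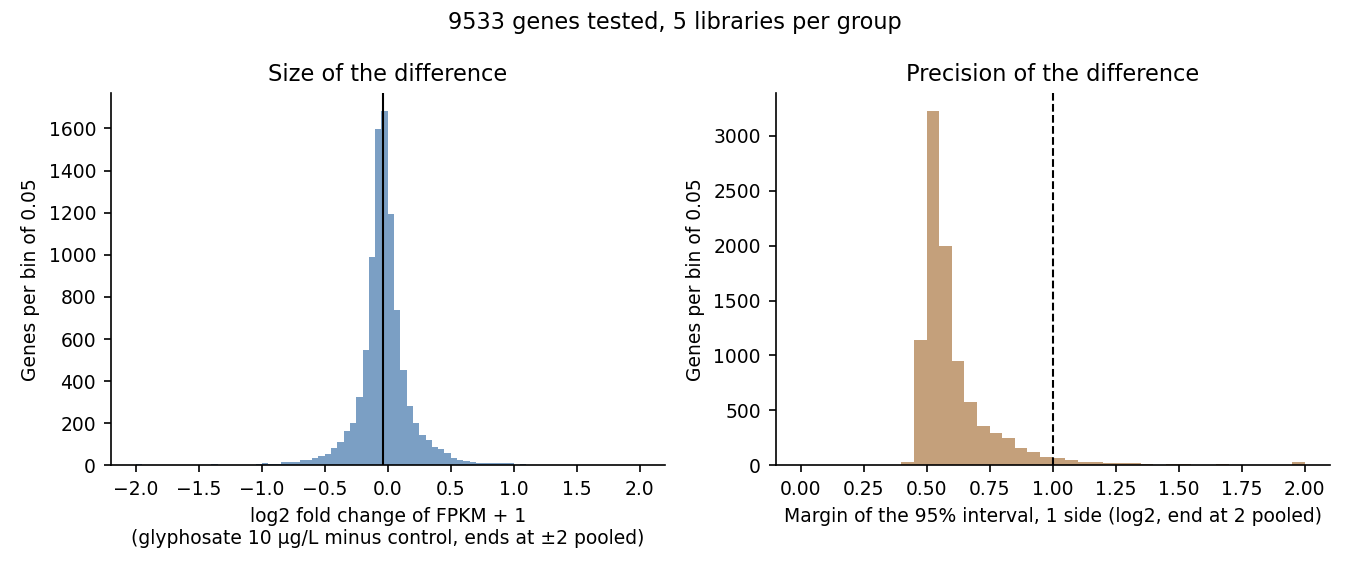
Distribution over 9533 genes of the log2 change, glyphosate 10 µg/L minus control, on the log2(FPKM + 1) scale (left), and of the margin of its 95% interval on one side (right), with the values beyond the end of the axis pooled there. Most changes lie between -0.36 and 0.32, inside a typical margin of 0.56.

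Among the genes that were higher at glyphosate, the smallest p-value was that of RACGAP1, a protein needed for the last step of cell division (GRCh38 chr12:49976923-50033136, minus strand, the span of its 28 named transcripts). It was at 3.19, 13.0, 2.19, 1.88 and 1.31 FPKM in the controls and 10.8, 10.3, 9.42, 12.8 and 5.73 at glyphosate. Control replicate 2 was the highest of all 10, so the groups overlapped through it, and every other control was below every glyphosate library. The log2 change was 1.34 (SE 0.35, 95% interval 0.63 to 2.05, exact permutation p = 0.0476, adjusted limma p = 1). Without control replicate 2 it was the only gene called, with a log2 change of 1.78 and an adjusted limma p of 0.00925.

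The assembly also placed transcripts with no gene name in the RACGAP1 locus, and these were added in a sum over the locus. It then stood at 15.2, 13.0, 9.57, 10.2 and 5.63 FPKM in the controls and 13.5, 12.7, 9.42, 14.3 and 5.93 at glyphosate. The groups now spanned nearly the same range, with a log2 change of 0.06 (exact permutation p = 0.865).

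ELF1, a transcription factor of the ETS family (chr13:40932028-41061440), behaved likewise. Under its name it was at 5.86, 0.901, 0.332, 1.56 and 0.152 FPKM in the controls and 2.73, 10.1, 5.29, 5.90 and 5.43 at glyphosate, a log2 change of 1.56 (exact permutation p = 0.0317). Only control replicate 1 reached into the glyphosate range. With the unnamed transcripts the change was 0.37 (exact permutation p = 0.135). MTMR1, a phosphatase of phosphoinositide lipids (chrX:150692971-150765103), was at 0.251, 0.189, 0.118, 0.360 and 0.169 FPKM in the controls and 6.87, 0.392, 0.481, 0.956 and 1.16 at glyphosate. It was the only higher gene whose groups did not overlap (0.0105% of those tested), by a gap between 0.360 and 0.392, with a log2 change of 0.94 (exact permutation p = 0.00794). With the unnamed transcripts it ranged from 3.45 to 6.46 in the controls and from 3.27 to 6.87 at glyphosate, and the change was 0.06 (exact permutation p = 0.683).

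Of the other higher genes in this set, MAP1LC3B, which is attached to the membrane of autophagosomes, was at 3.87, 2.95, 0.776, 2.95 and 2.53 FPKM in the controls and 26.3, 4.58, 5.42, 3.19 and 13.9 at glyphosate. Glyphosate replicates 1 and 5 were the highest, and replicate 4 lay within the control range. The log2 change fell from 1.40 to 0.40 once the unnamed transcripts were added (exact permutation p = 0.0159 and 0.0952). TBC1D15, STEAP2 and TRIM21 had log2 changes of 0.99, 0.98 and 0.88 under their names and of 0.36, 0.15 and 0.05 with the unnamed transcripts. ATRAID was at 3.02, 3.78, 3.00, 1.68 and 1.99 FPKM in the controls and 1.65, 24.3, 5.63, 28.0 and 18.8 at glyphosate (log2 change 1.74, exact permutation p = 0.0635). Its lowest value was also a glyphosate one, and its assembled locus also held CAD, so reads of the pair may be divided differently between them.

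Among the lower genes RPL37, a protein of the large ribosomal subunit (chr5:40825262-40835335, minus strand), had the smallest limma p of all. It was at 89.9, 35.4, 22.1, 6.29 and 38.6 FPKM in the controls and 3.86, 5.33, 14.1, 4.89 and 5.16 at glyphosate. Control replicate 4 lay within the glyphosate range, and the other 4 controls lay above it. The log2 change was -2.07 (SE 0.53, 95% interval -3.15 to -0.99, exact permutation p = 0.0159, adjusted limma p = 1). With the unnamed transcripts of the locus the controls were at 97.7, 46.6, 37.5, 10.2 and 44.9 and the glyphosate libraries at 31.4, 28.7, 26.9, 25.3 and 15.3. Control replicate 4 was then the lowest of all, and the change was -0.60 (exact permutation p = 0.302).

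ERO1A, the oxidase that drives disulphide bond formation in the endoplasmic reticulum (chr14:52639916-52695900), was at 19.7, 19.3, 18.8, 18.2 and 11.2 FPKM in the controls and 3.56, 11.3, 3.05, 4.51 and 9.09 at glyphosate. The groups met only at control replicate 5 and glyphosate replicate 2, and the log2 change was -1.45 (exact permutation p = 0.0159). With the unnamed transcripts the values ran from 15.5 to 25.2 and from 13.7 to 24.1, with a change of -0.21 (exact permutation p = 0.246). NUDT4, a hydrolase of diphosphoinositol polyphosphates, was at 8.41, 9.90, 8.24, 8.81 and 5.53 FPKM in the controls, and at 9.66, 0, 7.12, 0 and 0.0361 at glyphosate. Replicates 2, 4 and 5 at glyphosate were at or near 0 under the name but at 5.03, 6.59 and 2.53 with the unnamed transcripts, and the log2 change went from -1.88 to -0.42 (exact permutation p = 0.0794 and 0.190).

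The other lower genes of the set were C17orf58, KLHL36, AC011447.1 and SNORA32. C17orf58 was at 2.74, 3.005, 2.47, 2.66 and 0.873 FPKM in the controls and 0.0824, 0.107, 0.0696, 1.63 and 0.0301 at glyphosate, overlapping through control replicate 5 and glyphosate replicate 4 (log2 change -1.34, exact permutation p = 0.0159, and -0.37 with p = 0.135 when unnamed transcripts were added). AC011447.1, a long RNA whose locus also held ZNF90, was at 0.506, 17.7, 15.6, 10.96 and 12.5 FPKM in the controls and 15.97, 0.136, 0.139, 0.0661 and 0.216 at glyphosate. Replicate 1 was the exception in both groups, low among the controls and high at glyphosate, and the log2 change was -2.27 (exact permutation p = 0.0794). KLHL36 had a change of -0.89, and of -0.21 with unnamed transcripts, and SNORA32, whose name covers transcripts of 4 chromosomes, had -1.28. The last higher genes, the zinc importer SLC39A1 and the mitochondrial transfer RNA MT-TD, had changes of 1.31 and 1.16.

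The same division of FPKM between named and unnamed transcripts ran through the whole set. Of the 20 genes with the smallest p-values, 10 in each direction, 17 lay in a locus with unnamed transcripts, and in 13 of these no other gene name shared the locus. With the unnamed transcripts added the size of the change fell in all 13. Limma fitted 12 of these sums, C17orf58 having failed the variance filter, and 0 of the 12 had an unadjusted p under 0.05. The loci of TUT1, SLC39A1, AC011447.1 and ATRAID also held other gene names, and their changes shrank less. They were -1.03, 1.31, -2.27 and 1.74 by name, and -0.83, 0.99, -1.68 and 0.86 with unnamed transcripts added. Across all tested genes, 5563 (58.4%) lay in loci with unnamed transcripts. Of these 1.49% had an unadjusted p under 0.05, against 0.302% of the 3970 others. Their median residual SD was 0.463 on the log2 scale against 0.395. The 20 genes were picked for their small p in the sums by name, so a smaller change in another sum of the same reads is no independent test, and the part that the division has in these results was not tested.

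**Figure D3:**
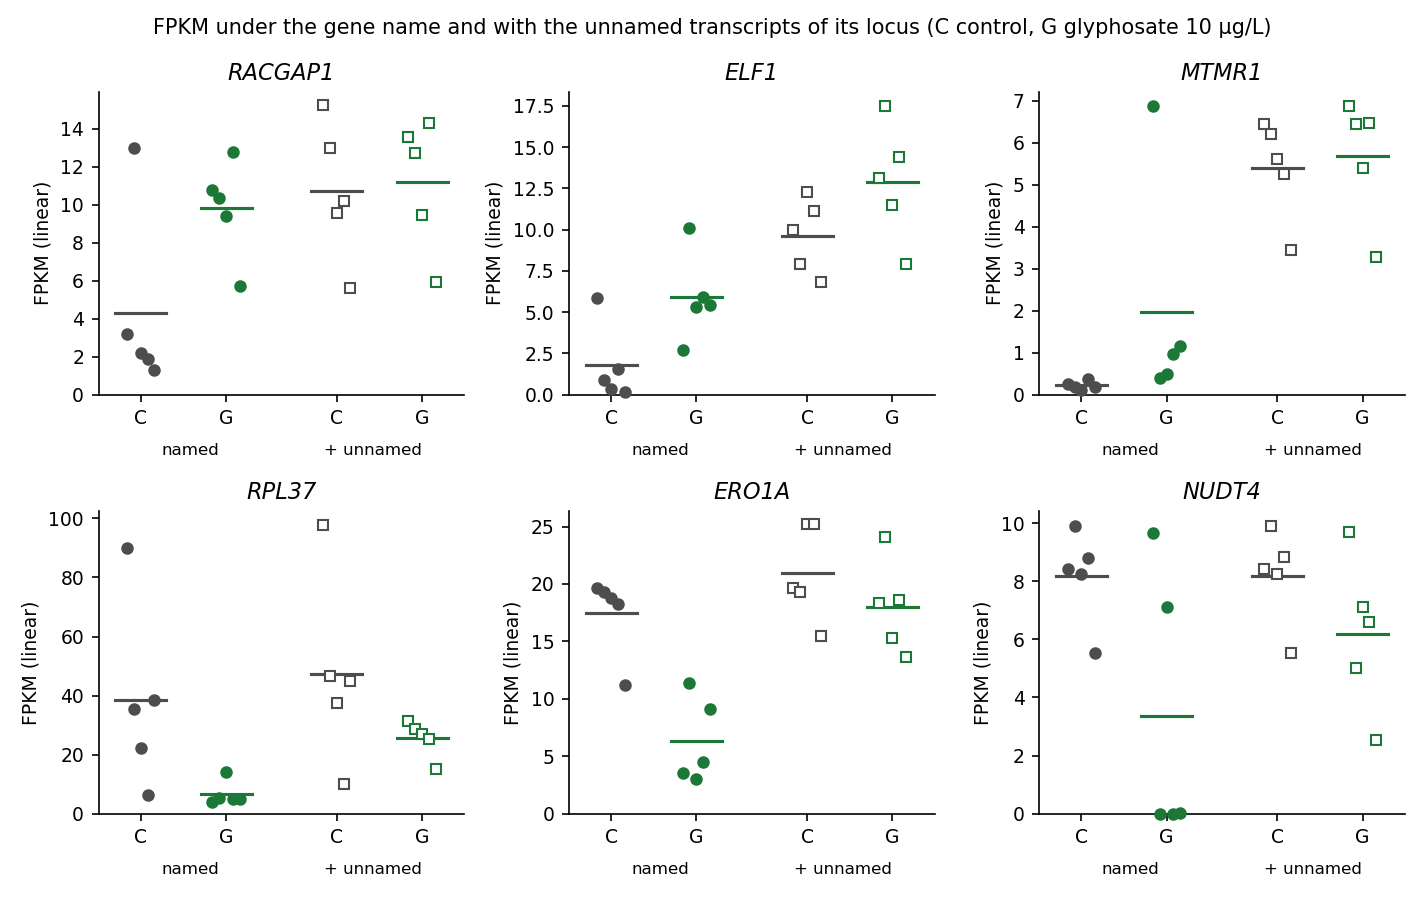
FPKM per library of 6 genes in control (C) and glyphosate 10 µg/L (G), under the gene name (filled circles) and with the unnamed transcripts of the same locus added (open squares); lines are means of 5 libraries and axes are linear. The distance between C and G narrows from the filled to the open symbols in all 6 genes.

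Groups that did not overlap were found for 5 of 9533 genes (0.0524%). Besides MTMR1 these were 4 genes lower at glyphosate (0.042%), GLIS2, TUT1, SNORA17B and CAMTA2. Each of the 5 had an exact permutation p of 0.00794, the smallest that 5 against 5 libraries can give. Groups that do not overlap always give this p, so it restates how the 5 genes were picked and adds no support. For a gene whose libraries are exchangeable, the chance of such groups equals this p, a larger share than the 0.0524% found. GLIS2, a zinc finger transcription factor (chr16:4314761-4339597), was at 5.74, 6.19, 3.56, 5.09 and 4.11 FPKM in the controls and 2.94, 2.81, 2.31, 1.80 and 0.851 at glyphosate, with a log2 change of -0.95. The gap between the groups was from 2.94 to 3.56, and with the unnamed transcripts the groups overlapped and the change was -0.24 (exact permutation p = 0.405). TUT1, which adds uridines to the end of U6 small nuclear RNA, was at 3.78, 2.72, 3.18, 2.46 and 1.42 FPKM in the controls and 1.29, 1.06, 0.432, 1.15 and 0.186 at glyphosate (log2 change -1.03).

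The TUT1 locus also held EEF1G, so its reads are uncertain in the same way as those of ATRAID. SNORA17B, a small nucleolar RNA that guides pseudouridylation, was at 4.75, 2.77, 1.65, 1.54 and 1.87 FPKM in the controls and 0.073, 1.21, 0, 1.32 and 0 at glyphosate (log2 change -1.25). It was listed at 0 in glyphosate replicates 3 and 5, and its locus also held SNHG7, SNORA17 and SNORA17A. CAMTA2, a transcription activator that was named here after its values were seen, had the smallest change of the 5, -0.68, with controls from 2.64 to 10.1 FPKM and glyphosate libraries from 1.90 to 2.46. Its locus also held unnamed transcripts and another gene name.

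Several of the largest changes came from RNAs that were present in some libraries and listed at 0 in others. FP236383.2, never at 0, had a log2 change of 2.18 and stood at 327 FPKM in glyphosate replicate 5, while the other 9 libraries ran from 0.0153 to 15.4. RN7SL1, the RNA of the signal recognition particle, was listed at 0 in 9 libraries and at 20403 FPKM in glyphosate replicate 5. AL139099.5, annotated at the same place (chr14:49586579-49586878), was at 21909 to 36906 FPKM in the controls and 23372 to 46827 in glyphosate replicates 1 to 4, and at 0 in replicate 5. Summed, the pair gave 34438, 36906, 25134, 32512 and 21909 in the controls and 35831, 46827, 23372, 32899 and 20403 at glyphosate. The fitted log2 changes of 2.86 and -2.82 rested on 1 library, glyphosate replicate 5, which alone listed RN7SL1 in place of AL139099.5. How reads were divided between both names was not tested. ZNF281, a zinc finger repressor listed at 0 in control replicates 2 and 4 only, had a change of 1.81. Its locus, which also held LINC00862, stood at 14.97 and 11.3 FPKM in those libraries with unnamed transcripts added, and the change was then 0.11 (exact permutation p = 0.635). SCARNA2, a small Cajal body RNA, was at 236 and 231 FPKM in control replicates 2 and 4 and listed at 0 in the other 8 libraries.

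The 13 protein genes of the mitochondrial genome showed the same on-and-off values. Of their 130 values in the 10 libraries 77 were exactly 0, 32 in the controls and 45 at glyphosate, although these are genes that every respiring cell uses. MT-CO3, a subunit of cytochrome c oxidase, was at 381, 8.12, 285, 290.5 and 0 FPKM in the controls and 0, 0, 0, 0 and 158 at glyphosate. MT-ND5, a subunit of complex I, went the other way, with 0, 0, 0, 0 and 12.5 FPKM in the controls and 30.0, 41.1, 19.1, 16.7 and 0 at glyphosate. In both genes, replicate 5 of each group was on the other side than most libraries of its group. The fitted log2 changes were -4.16 and 3.01 (exact permutation p = 0.0873 and 0.0476).

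MT-CO1, the catalytic subunit of cytochrome c oxidase, was never at 0. It was at 1506, 2009, 1411, 1223 and 193 FPKM in the controls and 213, 216, 347, 395 and 699 at glyphosate, again with replicate 5 reversed in both groups (log2 change -1.57, exact permutation p = 0.0714). MT-CYB of complex III, also present in every library, was at 166, 169, 120.1, 115 and 73.2 FPKM in the controls and 155, 192, 119, 129 and 74.4 at glyphosate. Those ranges coincided, with a log2 change of 0.05 (SE 0.28). The 21 tested genes of the nuclear-encoded respiratory chain had a median log2 change of -0.05, 20 of their intervals lay within 1, and 0 had a p under 0.05.

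Gene groups of liver biology were followed as 27 lists with 423 genes, of which 422 were in the table and 314 were tested. None of the 314 passed the threshold in limma, and 7 (2.23%) had an unadjusted p under 0.05, 2 higher and 5 lower, beside 0.997% of all genes. Their median log2 change was -0.05, and 265 of the intervals (84.4%) lay within 1.

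**Figure D4:**
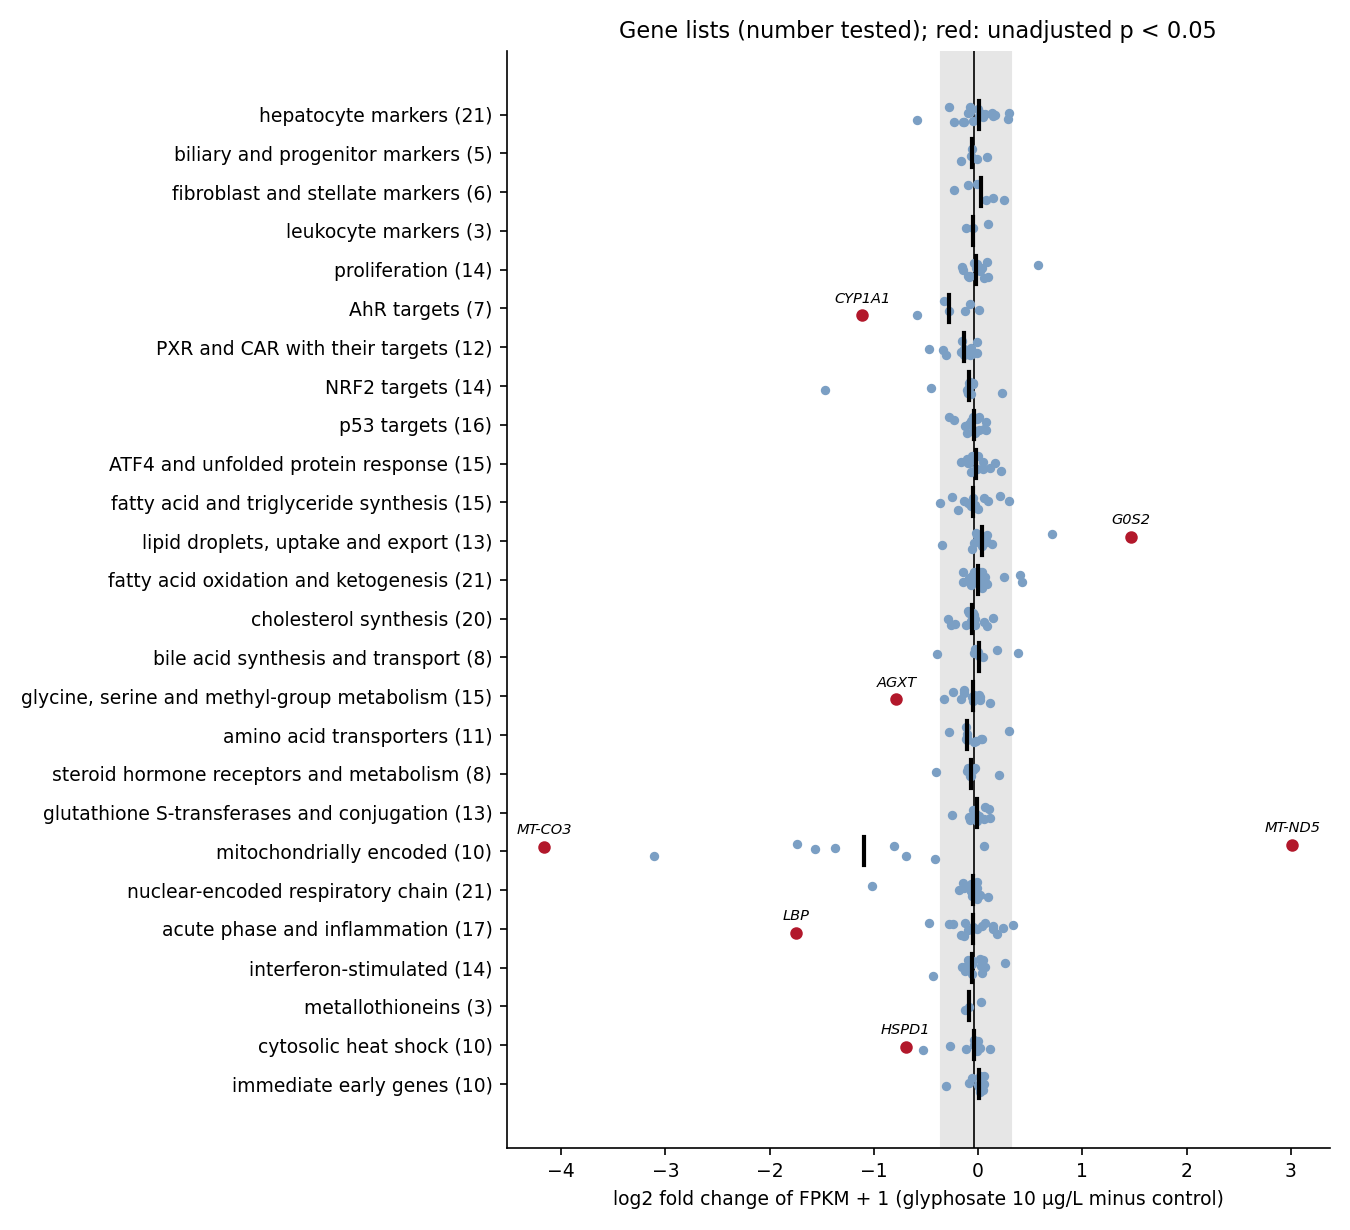
Log2 change, glyphosate 10 µg/L minus control, of the tested genes of 26 lists (points) with the list median (black bar), the median of all 9533 genes (vertical line) and their 5th to 95th percentile (grey band). Red points are the 7 genes with an unadjusted p under 0.05; most list medians sit within 0.1 of the all-gene median of -0.04.

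No gene of foreign-compound handling passed the threshold. CYP1A1, the P450 that AhR ligands raise most, was at 7.69, 3.76, 0.175, 0 and 0 FPKM in the controls and 0, 0.0408, 0, 0 and 0 at glyphosate. Control replicates 1 and 2 were high, and the other 8 libraries lay at or near 0, so the groups overlapped (log2 change -1.11, SE 0.48, exact permutation p = 0.167). With unnamed transcripts the controls were at 7.87, 3.802, 0.895, 0.160 and 0.187 and the glyphosate libraries at 0.351, 0.488, 0.291, 0.107 and 0.05 (log2 change -1.04, exact permutation p = 0.119). The 7 tested genes of the AhR list had a median log2 change of -0.28, with 6 below 0, and the intervals of 5 lay within 1, all but those of CYP1A1 and UGT1A6 (-0.59). ALDH3A1, an aldehyde dehydrogenase of the same battery, was at 136, 139.6, 159.9, 103 and 64.6 FPKM in the controls and 106, 128, 101, 106 and 52.8 at glyphosate, overlapping ranges with a change of -0.28. The receptor itself, AHR, changed by 0.00 with an interval from -0.51 to 0.52.

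All 12 tested genes of the PXR and CAR list had log2 changes below 0, with a median of -0.13, and none had a p under 0.05. They ran from -0.01 for CYP3A4, the most abundant drug-metabolising P450 of adult liver, to -0.47 for CYP2C19, whose interval was -1.16 to 0.22. CYP2C8 and the export pump ABCB1 had changes of -0.06 and -0.07. After scaling to the 75th percentile the medians of the AhR and of the PXR and CAR lists were -0.19 and -0.07, beside 0.04 for all genes. The 13 tested genes of glutathione transfer and other conjugation had a median of -0.01, and all 13 intervals lay within 1.

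**Figure D5:**
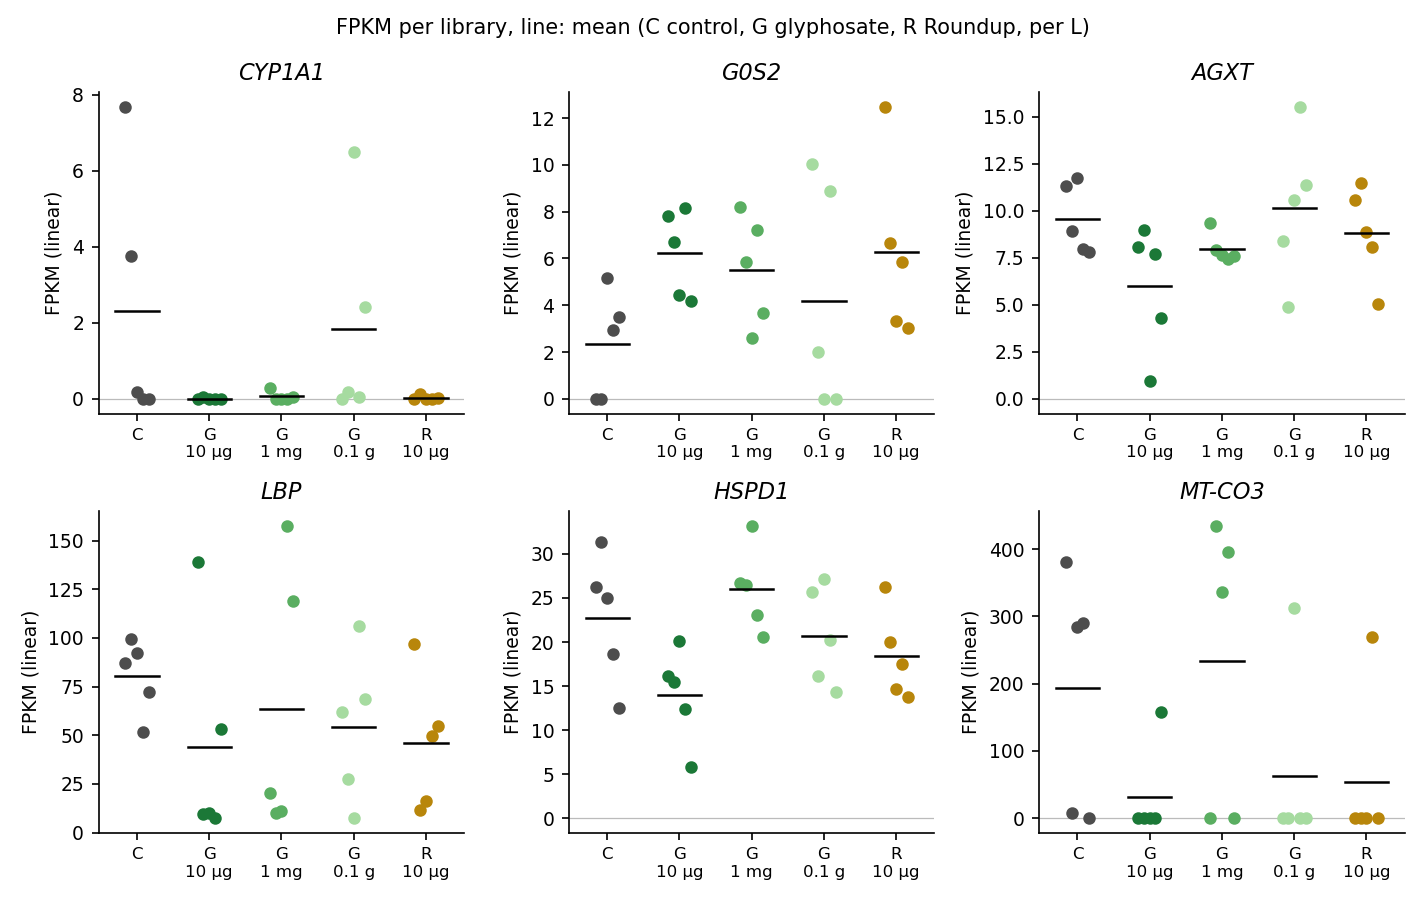
FPKM per library of 6 of the 7 list genes with an unadjusted p under 0.05, by group, from control through 3 glyphosate doses to Roundup (R); lines are means of 5 libraries and axes are linear. The spread between libraries of a group is as wide as the distance between group means in most panels, and CYP1A1 at 0.1 g/L has high and low libraries as the controls do.

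No gene of the stress programmes passed the threshold. The 16 tested p53 targets had a median log2 change of -0.04, and all 16 intervals lay within 1. CDKN1A, the cell cycle inhibitor p21, was at 183, 181, 168, 132 and 86.4 FPKM in the controls and 205, 187, 130.4, 137 and 72.8 at glyphosate, a change of -0.07 with an interval from -0.66 to 0.53. The unfolded protein response and ATF4 genes had a median of -0.02 with 15 of 15 intervals within 1, and the interferon-induced genes -0.05 with 14 of 14. The 14 NRF2 targets of the oxidative stress response had a median of -0.09 with 13 below 0, led by TXNRD1, thioredoxin reductase, at -1.47. Of all 9533 genes 5987 were below 0. After scaling to the 75th percentile the median of the NRF2 list was -0.005, beside 0.04 for all genes.

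TXNRD1 was at 332, 41.4, 57.6, 283 and 12.5 FPKM in the controls and 35.7, 20.9, 24, 91.9 and 9.39 at glyphosate. The controls alone spanned more than the distance between the groups, and its interval was -3.40 to 0.46. With unnamed transcripts its log2 change was -0.40. HSPD1, the mitochondrial chaperonin, was at 26.3, 31.3, 24.99, 18.7 and 12.5 FPKM in the controls and 16.2, 15.4, 20.1, 12.4 and 5.79 at glyphosate (log2 change -0.70, exact permutation p = 0.0794). With unnamed transcripts it was at 109, 89.7, 77.3, 69.1 and 48.1 against 105, 86.3, 79.4, 89.7 and 40.5, a change of 0.01 (exact permutation p = 0.976). The other cytosolic and mitochondrial heat shock genes ran from -0.53 for HSPE1 to 0.12 for BAG3, and none had a p under 0.05.

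Fat metabolism showed medians near 0. The 15 genes of fatty acid and triglyceride synthesis had a median log2 change of -0.05, with the desaturase SCD at 0.00 and the fatty acid synthase FASN at -0.20. The 21 genes of fatty acid oxidation and ketogenesis had a median of 0.00. PPARA, the receptor that drives this programme, was at 0.42, and at -0.05 with unnamed transcripts (exact permutation p = 0.0397 and 0.802). The 13 genes of lipid droplets, uptake and export had a median of 0.04, with the droplet coat protein PLIN2 at 0.08 and the lipoprotein backbone APOB at 0.01.

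G0S2, an inhibitor of the lipase PNPLA2, had the smallest limma p of these list genes apart from MT-ND5. It was at 0, 0, 5.16, 2.96 and 3.51 FPKM in the controls and 7.80, 6.71, 4.43, 8.16 and 4.17 at glyphosate, overlapping only through control replicate 3 (log2 change 1.46, exact permutation p = 0.0238). In control replicates 1 and 2 the name was listed at 0 while its locus with unnamed transcripts held 9.08 and 4.72 FPKM. With these added the controls were at 9.08, 4.72, 5.54, 6.02 and 3.70 and the glyphosate libraries at 9.94, 6.91, 4.99, 9.86 and 4.39, a change of 0.26 (exact permutation p = 0.365).

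The 20 tested genes of cholesterol synthesis and uptake had a median log2 change of -0.06, with 17 below 0 and 18 intervals within 1. After scaling to the 75th percentile their median was 0.02, beside 0.04 for all genes. Bile acid genes had a median of 0.01 over 8 genes, among them the conjugating enzyme BAAT at -0.04 and the hydroxylase CYP7B1 at 0.38. Of the 21 genes of steroid hormone receptors and metabolism 8 were tested, with a median of -0.07.

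Glycine, serine and methyl-group genes were followed because glyphosate carries a glycine unit. Their median log2 change over 15 genes was -0.05, with GATM, which makes the creatine precursor from glycine, at -0.05 and GLDC of the glycine cleavage system at -0.01. AGXT, the liver enzyme that turns glyoxylate into glycine, was at 11.3, 8.91, 11.7, 7.97 and 7.83 FPKM in the controls and 8.05, 9.00, 0.955, 7.69 and 4.30 at glyphosate. Glyphosate replicate 3 was far below the others, and replicates 1 and 2 lay within the control range (log2 change -0.78, exact permutation p = 0.0873, and -0.32 with p = 0.341 when unnamed transcripts were added). Amino acid transporters had a median of -0.11 over 11 genes.

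Acute phase genes were too variable for a statement on size. Their median log2 change was -0.05 over 17 genes, but the interval lay within 1 for only 7, and its median margin was 1.10 against 0.56 for all genes. HP, haptoglobin, was at 2090.0, 188, 209, 1010.2 and 173 FPKM in the controls and 980.0, 279.6, 154, 998 and 568 at glyphosate, with more than 10-fold between control libraries. LBP, which binds bacterial lipopolysaccharide, was at 86.9, 99.7, 92.4, 51.9 and 72.4 FPKM in the controls and 139, 9.63, 10.1, 7.47 and 53.1 at glyphosate. Replicates 2, 3 and 4 at glyphosate were low and replicate 1 was the highest of the 10 (log2 change -1.75, exact permutation p = 0.111). With unnamed transcripts those 3 libraries stood at 55.1, 42.7 and 63.7 FPKM, and the exact permutation p was 0.286. Immediate early genes had a median of 0.01 over 10 genes with a margin of 0.89. EGR1 was at 77.3, 25.7, 19.6, 23.6 and 15.02 FPKM in the controls and 85.3, 29.9, 20.6, 24.5 and 12.9 at glyphosate. Replicate 1 was the highest and replicate 5 the lowest in both groups, so the values of EGR1 followed the replicate number more than the group. Proliferation genes had a median of -0.02 over 14 genes, and the 3 tested metallothioneins one of -0.09.

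Set directly against the other exposures of the table, the 10 µg/L libraries did not differ in any gene at the threshold. Limma called 0 genes against glyphosate at 1 mg/L, 0 against 0.1 g/L and 0 against Roundup at 10 µg/L, with 129 (1.35%), 83 (0.871%) and 121 genes (1.27%) at an unadjusted p under 0.05. With library weights, which give noisier libraries less influence, the count against Roundup was 817 (8.57%), 795 of them higher at glyphosate 10 µg/L. Roundup replicate 3 then had a weight of 6.43 and the other 4 weights of 0.183 to 0.546, so that this count rested mostly on it. Against the controls, which all exposures share, the other exposures also had 0 called genes, with 125 (1.31%), 84 (0.881%) and 165 (1.73%) at an unadjusted p under 0.05 and median log2 changes of 0.14, -0.01 and -0.18, beside 95 and -0.04 at 10 µg/L. The mean of CYP1A1 was 2.33 FPKM in the controls, 0.00816 at 10 µg/L, 0.0668 at 1 mg/L, 1.83 at 0.1 g/L and 0.0273 with Roundup. It rose over the 3 glyphosate doses but was highest in the controls, and the mean at 0.1 g/L came mostly from libraries at 6.48 and 2.42 FPKM. The order was not tested. That of RACGAP1 was 4.31 in the controls and 9.81, 11.1, 11.6 and 9.44 in the same order, and since these 4 exposures share their controls, the low controls enter each of them.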

How the data were processed

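RNA depleted of ribosomal RNA was sequenced as strand-specific libraries. Per the submitters' processing notes, HISAT2, StringTie and GRCh38 were used, and the deposited table held an FPKM value per assembled transcript and library, made by the authors across 25 libraries and 234960 transcripts, of which 35782 carried no gene name. Columns that held a value below 0 were recorded here as a score, although the deposited table is one of FPKM. The 6 such values were set to 0. Read counts and depth were not used here, and what happened to reads shared by overlapping or near-identical genes is not given in the sources used here.

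FPKM was summed per gene name, and genes with a variance above 1 were kept. log2(FPKM + 1) was fitted with limma 3.58.1 (R 4.3.3) over all 5 groups, with no covariate, and p-values were adjusted by Benjamini-Hochberg over all genes tested, at a threshold of 0.05. Single values over 5 against 5 libraries were compared with a two-sided exact permutation test of means (252 splits, smallest p 0.00794), in Python 3.11.15 with numpy 2.4.6, pandas 2.3.3, scipy 1.17.1 and matplotlib 3.10.9. A locus sum added the unnamed transcripts that StringTie placed in the same assembled locus and was chosen after the data were seen. The scripts were tested on simulated data.

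Named genes were those past the threshold, up to 20. With none past it, they were the 10 higher and 10 lower genes of smallest p, the 5 largest increases and decreases, and from each list the 2 highest in the controls and the one of smallest p. Lists and groups were chosen with earlier results of these data known. Groups came from the labels, and replicates were numbered in accession order. A few genes of the lists are not reported here. In all, 26 alternatives changed the pseudocount, filter, scaling, model, weights, summing of transcripts or libraries left out.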

Additional observations from a re-analysis of the deposited data

Results flagged for a closer look

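In 31 of 216 sets of 5 library values (14.4%) the highest or lowest library lay farther, on the log2(FPKM + 1) scale for genes, from its nearest neighbour than Dixon's 95% limit allows, where chance gives about 1 in 20 sets. Control replicate 5 was the library in 12 of them and glyphosate replicate 5 in 10. The sets share their libraries and are not independent, and the cause was not tested.

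Control replicate 5 was the lowest of its group in C17orf58 (0.873 FPKM), ERO1A (11.2), LUM (25.7), FTL (2382), CYP51A1 (30.3), NSDHL (4.12), SLC3A2 (22.1), AKR1C3 (157), MT-CO1 (193), ATP5B (106) and MT1E (6.75), and the highest in MT-ND5 (12.5). The list genes among these include the sterol synthesis enzymes CYP51A1 and NSDHL, the iron store FTL and the ATP synthase subunit ATP5B.

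Glyphosate replicate 5 was the lowest of its group in ALDH3A1 (52.8 FPKM), MDM2 (48.0), PSAT1 (9.65), SDHD (0.0852), MT-ND5 (0) and AL139099.5 (0), and the highest in RN7SL1 (20403), MT-CO3 (158), MT-CO2 (62.6) and the share of FPKM in unnamed transcripts (27.5%).

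Elsewhere, control replicate 1 was low in AC011447.1 (0.506 FPKM) and high in FP236383.2 (13.0) and LYZ (8.95), and control replicate 4 was high in GSTA1 (587). Glyphosate replicate 1 was high in MTMR1 (6.87) and AC011447.1 (15.97), replicate 2 in CYP1A1 (0.0408), replicate 3 in RPL37 (14.1), and replicate 4 in C17orf58 (1.63).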

How the results depend on the processing

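The count of 0 called genes held in 23 of the 26 alternatives. It was 1 with no filter (RNU2-35P, a pseudogene of a spliceosomal RNA at 0.191 to 0.596 FPKM at glyphosate 10 µg/L and 0 in the other 20 libraries, adjusted p = 0.0228), 1 without control replicate 2 (RACGAP1), and 1 with FPKM summed per assembled locus (an unnamed locus on chromosome 3, at 1.95 to 5.62 FPKM in the controls and 0 at glyphosate, adjusted p = 0.00147). Leaving out each replicate in turn gave 0 to 1. Genes at an unadjusted p under 0.05, 95 in the report, numbered 1188 with no filter, 267 after 75th-percentile scaling (190 higher, 77 lower), 346 after quantile normalization (151 higher, 195 lower), 229 in a linear fit without moderation that had library size as a term, 327 with library weights, 186 from the most abundant transcript of a gene, 666 of 20601 single transcripts, 52 with unnamed transcripts added, 42 per assembled locus, and 93 to 175 with each replicate left out, the highest without control replicate 5. The cause was not tested.

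Intervals within 1 were 35.3% over single transcripts and 81.3% to 83.7% with each replicate left out, and the median log2 change then ran from -0.19 to 0.14. Against 1 mg/L, 2 genes were called with no filter and 1 per assembled locus, and 0 with each replicate left out. Against 0.1 g/L and against Roundup, 1 gene each was called with no filter, RNU2-35P, and 0 to 2 with each replicate left out. The 2 were ATRAID and AC011447.1 without glyphosate replicate 1. Against Roundup 817 were called with library weights. The group difference on the leading component was -0.728 after 75th-percentile scaling (exact permutation p = 0.960), and the log2 change of AL139099.5 was 0.078 without replicate 5 of every group and -3.69 to 0.19 with each replicate left out, the highest without glyphosate replicate 5. Of the 28 genes named for a small p or a large change, 26 kept their sign in every alternative that gave them a value, 22 to 24 for each gene.

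Library numbers fell in 5 runs, which the labels do not call batches. Control and glyphosate libraries of the same run correlated in their deviations at r of 0.110 to 0.1497 in 4 runs and -0.007 in the third. As r did not exceed 0.1 in every run, the libraries were not treated as pairs. This r was taken over genes and leaves out a shift shared by all genes of a library. The permutation p-values and the main fit take no account of the runs, so spread between runs counts as error in both. With the run as a replicate block 0 genes were called and 145 had an unadjusted p under 0.05, and 4 of 5 control libraries correlated best with the glyphosate library of their own run. The median margin of 0.56 in log2 was 0.31 after 75th-percentile scaling, 0.27 after quantile normalization, 0.32 with library size as a term, 0.36 with library weights and 0.46 with the run block. The margin belongs to an unadjusted interval and is not the size needed for a call. RACGAP1 at 1.34 and RPL37 at -2.07 were not called in the main fit. Furthermore, control replicate 2 decided the call of RACGAP1, and glyphosate replicate 5 decided the log2 changes of RN7SL1 and AL139099.5.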
